A study of Homo sapiens with 6 samples.

Results

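The protein arginine methyltransferases (PRMTs) and the partners of PRMT5 were examined in MOLM14 cells by RNA-Seq of cultures exposed to the FLT3 inhibitor HSN748. MOLM14 is an established cell line from a human AML and bears the FLT3-ITD mutation. The 10 genes were taken by symbol from the deposited table of 13244 genes, and all 10 passed the filter on low counts that left 13084 genes for the test. They are the enzymes PRMT1, PRMT2, PRMT3, CARM1 (also known as PRMT4), PRMT5, PRMT6, PRMT7 and PRMT9, and the PRMT5 partners WDR77 and CLNS1A. Treatment was 2 nM HSN748 for 24 hours in 3 cultures (replicates 7, 8 and 9), and DMSO, the solvent, for the same 24 hours in 3 control cultures (replicates 1, 2 and 3). All 6 cultures came from the same line, so both groups carry FLT3-ITD, and the study describes them as biologically independent. The question of the comparison was how exposure to HSN748 changed transcription, here of the arginine methylation machinery.

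PRMTs transfer methyl groups from S-adenosylmethionine (SAM) to the guanidino nitrogens of arginine in histones, splicing factors and other RNA-binding proteins. All PRMTs can place a single methyl group. Type I enzymes (PRMT1, PRMT2, PRMT3, CARM1 and PRMT6) go on to asymmetric dimethylarginine, type II enzymes (PRMT5 and PRMT9) to symmetric dimethylarginine, and the type III enzyme PRMT7 stops at monomethylarginine. PRMT5 works as a complex with WDR77 (also known as MEP50), a WD-repeat protein needed for its activity, and is pointed to its substrates by adaptors that compete for the same surface of PRMT5. CLNS1A (also known as pICln) is the adaptor that brings the Sm proteins of the spliceosome to PRMT5, RIOK1 brings other substrates such as nucleolin, and COPRS directs it to histones. PRMT5 is studied as a drug target in AML and in other blood cancers.

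Library totals ranged from 35277785 to 59279430 counts. Levels are given in CPM, each count divided by the size of its library, scaled with TMM factors, which were between 0.946 and 1.07, and the biological coefficient of variation was 11.2%. All 10 myeloid identity markers looked up were measured, and their summed level was 1586 to 1635 CPM in the DMSO cultures and 3207 to 3401 CPM in the HSN748 cultures. Of these markers 7 rose, 1 fell and 2 did not pass. FLT3, the target of HSN748, is among them and rose from a mean of 396 to 1150 CPM, and LYZ rose from 752 to 1267 CPM. CSF1R, the receptor of the macrophage growth factor, had the largest fold rise, from 9.84 to 12.4 CPM with DMSO to between 213 and 253 CPM with HSN748. MPO, a marker of granulocyte precursors and the 1 that fell, was low at 8.83 to 12.6 CPM with DMSO and 1.94 to 2.50 CPM with HSN748. Of 14 markers of other cell types 3 were measured, with a summed level of 211 to 213 CPM against 593 to 658 CPM. Nearly all of that sum was PECAM1, which myeloid cells also express, while KRT8 and COL1A1 stayed under 4 CPM in each library and CD3E, HBB and GATA1 were among the markers not analysed here. These marker levels moved with the treatment, and their part in the results was not tested.

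Most transcripts of the PRMT family were lower with HSN748. The 8 genes PRMT1, PRMT3, CARM1, PRMT5, PRMT6, PRMT7, WDR77 and CLNS1A fell, PRMT2 rose, and PRMT9 did not pass the test (edgeR quasi-likelihood test, Benjamini-Hochberg adjustment over all genes). Of all genes tested 36.5% were called lower and 36.6% higher at the same threshold, an adjusted p under 0.05. Falls of 6 of the 10 genes went beyond a log2 fold change of -1, which 14.9% of all genes did with a call. The groups did not overlap for 9 of the 10 genes, a separation that 75.4% of all genes showed. The median log2 fold change of the 10 genes was -1.16, against 0.01 for all genes tested. Bulk RNA cannot tell fewer cells of a type from less RNA per cell.

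**Figure D1:**
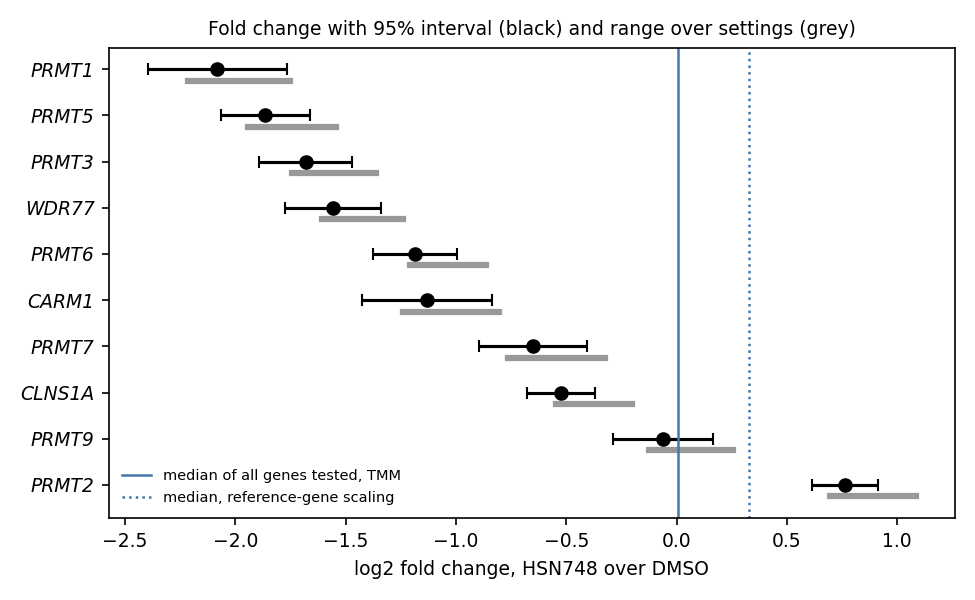
Log2 fold change of each gene (HSN748 over DMSO, 3 cultures a group) with its 95% confidence interval in black, and the range over the main fit and 16 alternatives in grey. The 4 largest falls are those of PRMT1 (-2.08), PRMT5 (-1.86), PRMT3 (-1.68) and WDR77 (-1.56), PRMT9 spans 0, and PRMT2 lies above the median of all genes under both scalings drawn, 0.01 and 0.33.

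PRMT5, the main source of symmetric dimethylarginine, stood at 184, 176 and 190.3 CPM in the DMSO cultures and at 48.2, 46.5 and 56.5 CPM in the HSN748 cultures. The groups were far apart and each was tight, at 184 ± 7.2 against 50.4 ± 5.3 CPM (SD, n = 3). The fall was 3.64-fold, or -1.86 on the log2 scale (SE 0.09, 95% interval -2.07 to -1.66, adjusted p 2.6e-07). Only 4.72% of the genes tested had a lower log2 fold change than PRMT5.

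WDR77, the obligate partner of PRMT5, stood at 107, 102 and 110.4 CPM with DMSO and at 39.5, 31.5 and 37.5 CPM with HSN748. Again each HSN748 culture lay well below each DMSO culture, with a 2.94-fold fall (log2 fold change -1.56, SE 0.10, adjusted p 1.1e-06). CLNS1A, the Sm adaptor, stood at 239.9, 244 and 245 CPM with DMSO and at 178, 159 and 169 CPM with HSN748. The CLNS1A groups did not overlap, but the fall was smaller, 1.44-fold, or -0.52 on the log2 scale (SE 0.07, adjusted p 1.1e-04). When libraries were scaled on 10 reference genes, the CLNS1A fall did not pass (log2 fold change -0.20, adjusted p 0.0522), while PRMT5 and WDR77 kept their calls. Under that scaling the median over all tested genes was 0.33 on the log2 scale. In the main fit 5 of the 10 reference genes were themselves called lower, 1 higher and 4 did not pass. Their median log2 fold change was -0.23.

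The start regions of the PRMT5, WDR77 and CLNS1A genes are shown because these genes encode a working complex and its adaptor and fell by different amounts. The sequences are from RefSeq (GRCh38.p14), 300 bases each from 250 before to 50 after the annotated start, and all 10 genes matched an entry. PRMT5 (minus strand) is at chr14:22929327-22929626, WDR77 (minus strand) at chr1:111449207-111449506 and CLNS1A (minus strand) at chr11:77637745-77638044, printed 5′ to 3′ on the strand of the gene. Capitals mark matches to the motifs listed after the sequences.
PRMT5: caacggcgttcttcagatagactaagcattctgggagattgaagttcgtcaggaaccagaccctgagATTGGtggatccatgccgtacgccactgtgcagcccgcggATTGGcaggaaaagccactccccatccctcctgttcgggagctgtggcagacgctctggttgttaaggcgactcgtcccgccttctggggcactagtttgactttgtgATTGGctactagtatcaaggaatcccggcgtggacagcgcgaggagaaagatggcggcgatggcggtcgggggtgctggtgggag
WDR77: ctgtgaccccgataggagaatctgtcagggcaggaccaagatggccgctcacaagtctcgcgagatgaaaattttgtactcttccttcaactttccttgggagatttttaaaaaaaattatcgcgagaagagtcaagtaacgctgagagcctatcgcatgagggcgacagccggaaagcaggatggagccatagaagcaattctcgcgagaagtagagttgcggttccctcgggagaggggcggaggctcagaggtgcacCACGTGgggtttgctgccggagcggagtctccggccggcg
CLNS1A: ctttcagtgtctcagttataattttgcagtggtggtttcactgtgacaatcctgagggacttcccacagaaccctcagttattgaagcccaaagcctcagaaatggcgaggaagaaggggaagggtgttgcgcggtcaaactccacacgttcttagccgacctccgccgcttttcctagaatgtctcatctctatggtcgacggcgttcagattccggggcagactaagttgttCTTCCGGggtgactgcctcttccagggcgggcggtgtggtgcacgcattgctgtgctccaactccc

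A total of 6 motifs was searched on both strands, namely the MYC/MAX E-box CACGTG, ETS CCGGAAG, E2F TTTGGCGC or TTTCCCGC, CRE TGACGTCA, the NRF1 core TGCGCA and NF-Y CCAAT, none of which contains another. PRMT5 held CCAAT, on the opposite strand and so read as ATTGG, at positions -183, -143 and -35 from the start, a motif in 34.6% of 35116 windows of the same length. WDR77 held the E-box at position 11 after the start, a motif in 7.26% of windows. CLNS1A held ETS on the opposite strand at position -16, a motif in 10.3% of windows. So the 3 genes had no motif of the search in common. These matches describe the letters of the windows and are not binding sites.

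In the deposited table PRMT5 spans chr14:22920529-22929376, WDR77 chr1:111439890-111449308 and CLNS1A chr11:77614530-77637806, all on the minus strand. The build of the table is not given in the sources used here, and its gene start equals that of RefSeq GRCh38.p14 for PRMT5, CARM1, PRMT6 and PRMT7. For the others the RefSeq start lies further into the gene, by 12 bases for CLNS1A, 52 for WDR77 and up to 186 for PRMT3. Motif positions are counted from the RefSeq start. In GENCODE v29 the antisense gene PRMT5-AS1 covers 27.1% of the exon bases of PRMT5, and for WDR77 ATP5PB on the opposite strand covers 12.5% and AL390195.1 on the same strand 24.0%. The strand setting of the counts is not given, so the counts of PRMT5 and WDR77 may include reads of antisense partners. PRMT1, PRMT5 and CLNS1A each have a processed pseudogene, and CARM1 an unprocessed one, with which reads could be shared.

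The balance between PRMT5 and its partners was compared within each library, where scaling plays no part, as counts per kilobase of the deposited gene length relative to PRMT5. CLNS1A was at 0.990, 1.05 and 0.977 per PRMT5 with DMSO and at 2.81, 2.60 and 2.28 with HSN748. Each HSN748 library held more CLNS1A per PRMT5 than each DMSO library, 2.54-fold on average (log2 difference 1.34, exact permutation test, two-sided, p = 0.1). WDR77 was at 0.546, 0.543 and 0.545 per PRMT5 with DMSO, nearly the same in the 3 cultures, and at 0.769, 0.635 and 0.624 with HSN748. This ratio was 1.23-fold higher with HSN748 (log2 difference 0.30, exact permutation test, two-sided, p = 0.1). With 3 against 3 cultures 0.1 is the smallest p this test can give, and over the 3 ratios tested the adjusted value was also 0.1. Since only 4.72% of the genes tested had a lower log2 fold change than PRMT5, most genes rose relative to it. A higher ratio to PRMT5 is thus not particular to these partners.

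**Figure D2:**
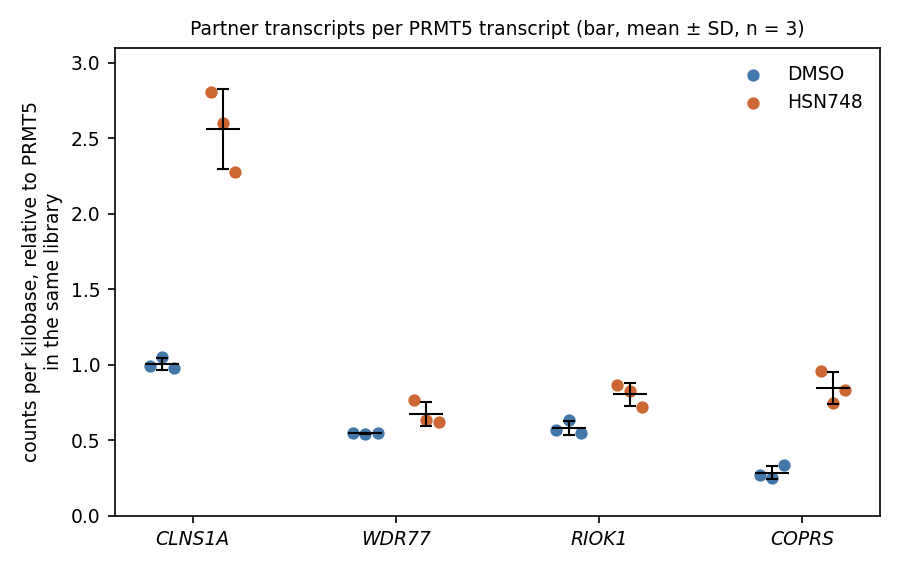
Counts per kilobase of CLNS1A, WDR77, RIOK1 and COPRS relative to PRMT5 in the same library, 1 point a library, with the mean and SD of 3 libraries a group. CLNS1A rises from near 1 (0.977 to 1.05) to between 2.28 and 2.81, while WDR77 moves from near 0.545 to between 0.624 and 0.769. Most genes tested rose relative to PRMT5.

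The adaptors RIOK1 and COPRS were described in the same way. RIOK1 stood at 111, 118 and 109.8 CPM with DMSO and at 44.3, 40.8 and 42.9 CPM with HSN748, and fell (log2 fold change -1.40, SE 0.07, adjusted p 3.4e-07). COPRS stood at 22.3, 19.8 and 28.6 CPM with DMSO and at 20.8, 15.6 and 21.0 CPM with HSN748, so the groups overlapped and the test was not passed (log2 fold change -0.30, SE 0.16, adjusted p 0.13). The COPRS value depended on single libraries, with a call as lower without DMSO replicate 2 (-0.41, adjusted p 0.0383) and a value of -0.14 without DMSO replicate 3 and -0.16 without HSN748 replicate 8. Relative to PRMT5 per kilobase, RIOK1 was at 0.582 ± 0.045 with DMSO and 0.804 ± 0.077 with HSN748, and COPRS at 0.285 ± 0.044 and 0.845 ± 0.11 (SD, n = 3). Of the summed adaptor level per kilobase, CLNS1A made up 53.7 ± 0.9% with DMSO and 60.8 ± 1.4% with HSN748, and RIOK1 31.0 ± 1.7% and 19.1 ± 0.6%. These ratios and shares were not tested.

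Also on that list were kinases known to act on the PRMT5 complex. CDK4, which with cyclin D phosphorylates WDR77, fell from 264, 232 and 328 CPM to 95.1, 81.3 and 96.2 CPM (log2 fold change -1.59, SE 0.13). JAK2, whose mutant form in myeloproliferative disease phosphorylates PRMT5, rose from 41.9, 47.8 and 34.96 CPM to 89.9, 94.4 and 88.9 CPM (log2 fold change 1.13, SE 0.11). TXNIP, a thioredoxin-binding protein that is not an adaptor, rose with a log2 fold change of 2.14. Of the 5 genes on the list 2 rose, 2 fell and 1, COPRS, did not pass, where 36.6% of all genes rose and 36.5% fell. The median log2 fold change was -0.30, or 0.02 when scaled on reference genes, against 0.01 and 0.33 for all genes tested.

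Among the type I enzymes PRMT1, which places most asymmetric dimethylarginine in human cells, stood at 231, 189 and 283 CPM with DMSO and at 55.4, 52.2 and 58.5 CPM with HSN748. The DMSO cultures differed among themselves by more than those of PRMT5 did (234 ± 47 CPM), yet the lowest of them lay above each HSN748 culture (55.3 ± 3.2 CPM). PRMT1 had the largest fall of the 10 genes, 4.23-fold, or -2.08 on the log2 scale (SE 0.14, 95% interval -2.40 to -1.76, adjusted p 1.8e-06).

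PRMT3, a cytosolic enzyme that methylates the ribosomal protein RPS2, stood at 70.3, 77.7 and 64.8 CPM with DMSO and at 21.0, 23.4 and 21.9 CPM with HSN748. The groups were far apart, with a 3.21-fold fall (log2 fold change -1.68, SE 0.09, adjusted p 5.7e-07). CARM1, a transcriptional coactivator that methylates histone H3, stood at 81.1, 68.0 and 93.1 CPM with DMSO and at 34.2, 34.3 and 41.9 CPM with HSN748. Its fall was 2.19-fold (log2 fold change -1.13, SE 0.13, adjusted p 5.5e-05). Of the CARM1 exon bases in the deposited annotation 25.5% are shared with YIPF2 on the opposite strand. PRMT6, a nuclear enzyme that methylates histone H3 near its amino terminus, stood at 30.9, 31.3 and 30.2 CPM with DMSO and at 13.4, 14.3 and 12.9 CPM with HSN748. Both groups were narrow, and the fall was 2.27-fold (log2 fold change -1.19, SE 0.08, adjusted p 2.5e-06).

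PRMT2, a type I enzyme of weak activity that binds nuclear receptors, moved the other way. It stood at 43.3, 42.9 and 43.4 CPM with DMSO and at 72.9, 75.1 and 71.9 CPM with HSN748. No HSN748 culture came near the DMSO cultures, whose range was under 1 CPM, and the rise was 1.70-fold (log2 fold change 0.76, SE 0.07, 95% interval 0.61 to 0.91, adjusted p 9.1e-06). PRMT2 was the 1 gene of the 10 that rose, and 77.7% of all genes had a lower log2 fold change.

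The PRMT1, PRMT3 and PRMT2 starts are printed because PRMT1 and PRMT3 had the largest falls among the type I enzymes and PRMT2 rose. The windows are chr19:49677021-49677320 for PRMT1, chr11:20387466-20387765 for PRMT3 and chr21:46635424-46635723 for PRMT2, all on the plus strand, from RefSeq GRCh38.p14, with matches to the same motifs in capitals. In the deposited table the type I genes lie at chr19:49677152-49688450 (PRMT1), chr21:46635595-46665124 (PRMT2), chr11:20387530-20509338 (PRMT3), chr19:10871553-10923073 (CARM1) and chr1:107056674-107059294 (PRMT6), all on the plus strand. In GENCODE v29 ADM5 on the same strand covers 7.63% of the PRMT1 exon bases.
PRMT1: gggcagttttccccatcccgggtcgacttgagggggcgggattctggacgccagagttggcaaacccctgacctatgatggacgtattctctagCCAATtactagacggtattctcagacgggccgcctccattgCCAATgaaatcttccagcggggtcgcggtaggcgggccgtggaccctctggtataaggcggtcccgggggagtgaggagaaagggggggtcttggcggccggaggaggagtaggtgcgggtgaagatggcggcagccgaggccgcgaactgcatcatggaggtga
PRMT3: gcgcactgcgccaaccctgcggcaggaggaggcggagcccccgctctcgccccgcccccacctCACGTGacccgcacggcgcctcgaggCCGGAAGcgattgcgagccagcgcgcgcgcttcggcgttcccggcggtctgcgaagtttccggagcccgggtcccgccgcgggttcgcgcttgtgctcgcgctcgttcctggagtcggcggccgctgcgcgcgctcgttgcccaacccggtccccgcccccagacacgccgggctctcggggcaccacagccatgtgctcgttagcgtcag
PRMT2: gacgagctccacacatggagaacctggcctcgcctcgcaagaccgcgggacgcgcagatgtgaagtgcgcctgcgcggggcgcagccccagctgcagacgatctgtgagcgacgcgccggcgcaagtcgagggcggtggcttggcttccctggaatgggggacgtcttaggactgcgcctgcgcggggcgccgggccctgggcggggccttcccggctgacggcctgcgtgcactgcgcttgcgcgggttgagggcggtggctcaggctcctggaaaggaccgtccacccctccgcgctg

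PRMT1 held CCAAT at positions -156 and -115, and PRMT3 held the E-box at -187 and the ETS motif at -161. None of the motifs was found in the PRMT2 window, nor in those of CARM1, PRMT6 and PRMT7, while PRMT9 held the NRF1 core at position -47, a motif in 8.24% of all windows. The RefSeq start lies 119 (PRMT1), 186 (PRMT3) and 67 (PRMT9) bases into the deposited gene. So the PRMT1 match at -115, the PRMT3 ETS match and the PRMT9 match fall within the deposited genes, and the PRMT3 E-box at the edge. The E2F motif (2.27% of windows) and CRE (1.85%) were in none of the 10 windows.

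PRMT7 (chr16:68311019-68358548, plus strand) and PRMT9 (chr4:147637785-147684230, minus strand) make up the remaining enzymes. PRMT7, the monomethylating enzyme, stood at 64.7, 50.9 and 66.0 CPM with DMSO and at 37.2, 38.9 and 39.5 CPM with HSN748. The groups did not overlap, and the fall was 1.57-fold (log2 fold change -0.65, SE 0.11, adjusted p 5.2e-04). PRMT9, a type II enzyme known for the splicing factor SF3B2 as its substrate, stood at 20.6, 21.1 and 18.1 CPM with DMSO and at 20.7, 18.7 and 18.0 CPM with HSN748. Its groups overlapped, and the log2 fold change was -0.06 (SE 0.10, adjusted p 0.60) with a 95% interval of -0.29 to 0.17. That interval does not reach the change of any other gene of the 10. The sign of the PRMT9 value differed with the scaling of libraries, and it passed the test under none of the settings tried.

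**Figure D3:**
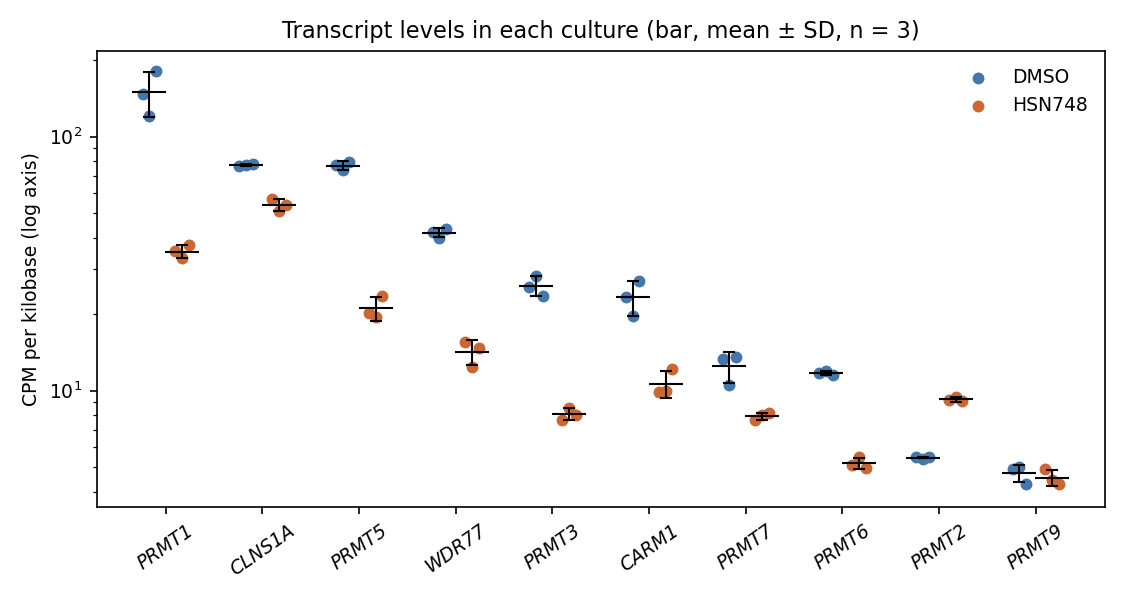
CPM per kilobase of gene length on a log axis for each gene in each culture (blue DMSO, orange HSN748), with the mean and SD of 3 cultures as black bars. PRMT1 is highest with DMSO at 149 and CLNS1A highest with HSN748 at 53.7, PRMT2 is the gene that is higher with HSN748, and the PRMT9 points overlap.

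Per kilobase of gene length, the order of levels with DMSO was PRMT1 (149 ± 30 CPM per kilobase), CLNS1A (77.3 ± 0.8), PRMT5 (76.8 ± 3.0), WDR77 (41.9 ± 1.7), PRMT3 (25.9 ± 2.4), CARM1 (23.4 ± 3.6), PRMT7 (12.5 ± 1.7), PRMT6 (11.7 ± 0.2), PRMT2 (5.44 ± 0.04) and PRMT9 (4.73 ± 0.37; SD, n = 3). Neighbours whose cultures overlapped in this order were CLNS1A with PRMT5, PRMT3 with CARM1, and PRMT7 with PRMT6. With HSN748 CLNS1A came before PRMT1, at 53.7 ± 2.9 and 35.3 ± 2.0 CPM per kilobase. PRMT5 (21.1 ± 2.2), WDR77 (14.2 ± 1.6), CARM1 (10.6 ± 1.3), PRMT2 (9.23 ± 0.21), PRMT3 (8.08 ± 0.43), PRMT7 (7.94 ± 0.25), PRMT6 (5.17 ± 0.26) and PRMT9 (4.54 ± 0.33) followed, with overlap only between PRMT3 and PRMT7 among neighbours. Deposited lengths ran from 1568 bases for PRMT1 to 7945 for PRMT2, and the levels per kilobase depend on them.

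Summed per kilobase, the 5 type I transcripts were at 216 ± 31 CPM with DMSO and 68.4 ± 2.6 CPM with HSN748, and all 8 PRMTs at 309.9 ± 35.5 and 102 ± 4.8 CPM. PRMT1 made up 68.9%, 64.8% and 72.8% of the type I sum in the DMSO libraries and 52.6%, 49.9% and 52.2% in the HSN748 libraries. Its share was lower in each HSN748 library, by 17.3 points on average (mean difference -17.3, exact permutation test, two-sided, p = 0.1, the smallest possible). PRMT2 went from 2.55 ± 0.35% to 13.5 ± 0.8% of the sum, CARM1 from 10.8 ± 0.2% to 15.5 ± 1.3%, PRMT6 from 5.53 ± 0.89% to 7.57 ± 0.64%, and PRMT3 from 12.3 ± 2.9% to 11.8 ± 0.9%. The shares other than that of PRMT1 were not tested.

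**Figure D4:**
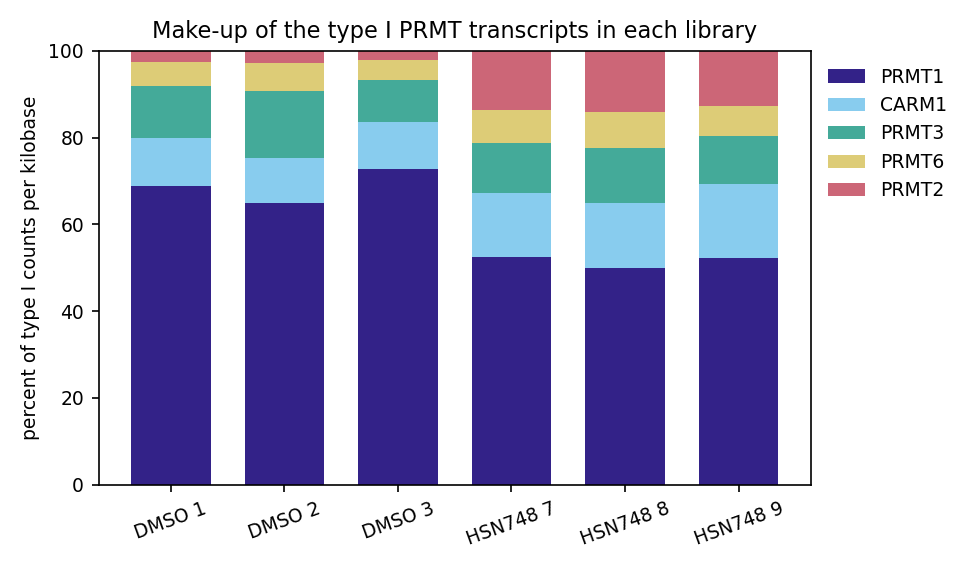
Share of each type I enzyme in the summed counts per kilobase of PRMT1, CARM1, PRMT3, PRMT6 and PRMT2, 1 bar a library from 0 to 100%. PRMT1 takes 64.8% to 72.8% of the DMSO bars and 49.9% to 52.6% of the HSN748 bars, and PRMT2 grows from 2.55% to 13.5% on average.

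The genes nearest to PRMT5 in pattern were sought among 8920 genes of at least 10 CPM, by the Euclidean distance of the centred log2 CPM values of the 6 libraries. They were SSRP1 (distance 0.07), a subunit of the histone chaperone FACT, ALDH18A1 (0.10), an enzyme of proline synthesis, RRS1 (0.10), a ribosome assembly factor, PPRC1 (0.12), a transcriptional coactivator, and PGAM5 (0.13), a mitochondrial phosphatase. SSRP1 stood at 406, 404 and 435 CPM with DMSO and at 105, 107 and 126 CPM with HSN748, which like PRMT5 was highest in replicates 3 and 9 of its groups. Their log2 fold changes lay between -1.93 and -1.81.

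Proteins known to bind or modulate PRMT1, PRMT3 or CARM1 changed in both directions. Of 7 listed 6 were tested, 4 rose and 2 fell, where 36.6% of all genes rose and 36.5% fell. BTG1, an antiproliferative protein that binds PRMT1 and stimulates it, lay between 50.1 and 57.5 CPM with DMSO and between 198 and 205 CPM with HSN748 (log2 fold change 1.87, SE 0.08). Its relative BTG2 lay between 14.0 and 15.5 CPM and between 64.8 and 67.2 CPM (2.18, SE 0.08), so that neither gene's groups overlapped. EPB41L3, an inhibitor of PRMT3, rose with a log2 fold change of 0.65, and the deadenylase CNOT8 with 0.29. CNOT7, a deadenylase that binds BTG proteins and PRMT1, fell (log2 fold change -0.68). Of the other arginine methyltransferases the histone enzyme METTL23 rose (log2 fold change 0.47, adjusted p 0.0027), the mitochondrial enzyme NDUFAF7 did not pass (-0.10, adjusted p 0.39) and PRMT8 was not analysed here.

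The supply of SAM and the salvage of methylthioadenosine (MTA), which inhibits PRMT5, were covered by 17 genes, of which 12 fell, 2 rose and 3 did not pass, with a median log2 fold change of -0.42. MAT2A, which makes SAM, stood at 687, 688 and 595 CPM with DMSO and at 289.7, 296 and 274 CPM with HSN748 (log2 fold change -1.20, SE 0.08, adjusted p 2.4e-06). MTAP, which clears MTA and whose loss sensitises tumours to PRMT5 inhibition, stood at 58.3, 67.4 and 52.5 CPM with DMSO and at 20.3, 18.4 and 17.9 CPM with HSN748 (log2 fold change -1.65, SE 0.11, adjusted p 1.7e-06). Both were lower in each HSN748 culture than in each DMSO culture. ENOPH1, a later step of MTA salvage, fell as well (-1.61), while AHCYL2, a relative of the enzyme that clears S-adenosylhomocysteine, rose (1.003). Scaled on reference genes, 7 of the 17 were called lower and 4 higher. In the main fit 36.5% of all genes were called lower and 36.6% higher.

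**Figure D5:**
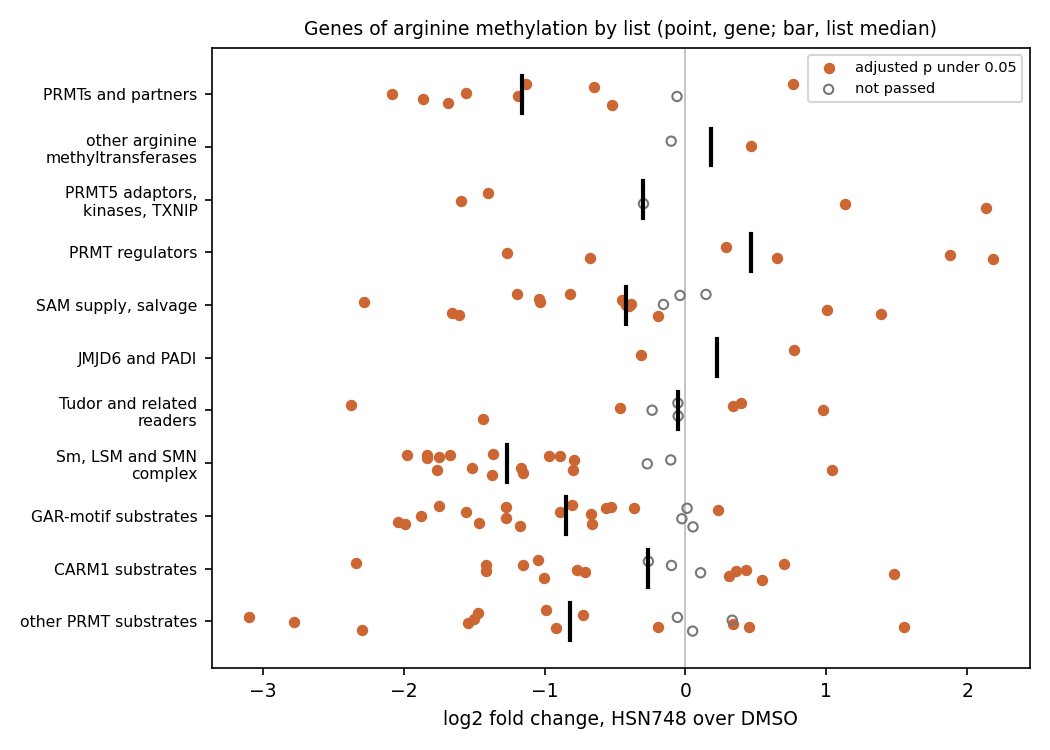
Log2 fold change of each tested gene (HSN748 over DMSO) by list, filled where the adjusted p was under 0.05, with the list median as a bar. The medians of the PRMTs and partners (-1.16) and of the Sm, LSM and SMN list (-1.26) lie lowest, and those of the PRMT regulators (0.47) and of the CARM1 substrates (-0.26) nearer to or above 0.

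Sm and LSM proteins and members of the SMN complex were covered by a list that holds substrates of PRMT5 and other genes. Not every Sm protein on it has a methylated tail, and SMN1 and SMN2 were not analysed here. Of 18 genes 15 fell, 1 rose and 2 did not pass, where 36.5% of all genes fell and 36.6% rose. The median log2 fold change was -1.26, and the count of falls was 15 without DMSO replicate 3 too. That library was the highest for SNRPB, a Sm protein with a methylated tail, at 352 CPM, against 244 and 197 CPM in the other DMSO cultures and 81.9, 68.9 and 84.6 CPM with HSN748. The log2 fold change of SNRPB was -1.75 (SE 0.19) and -1.49 without that library. SNRPD1 (-1.76) and SNRPD3 (-0.97), the other Sm proteins with tails methylated by PRMT5, fell too. GEMIN5, which recognises snRNA, and GEMIN4 and GEMIN2, subunits of the SMN complex, fell with -1.97, -1.83 and -1.37, whereas GEMIN7 of the same complex rose (1.04), lying between 15.2 and 19.5 CPM with DMSO and between 33.7 and 37.3 CPM with HSN748.

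Of 20 tested proteins with the glycine- and arginine-rich motif that PRMT1 methylates, 16 fell, 1 rose and 3 did not pass, with a median of -0.85. Scaled on reference genes, 14 were called lower and 4 higher, and with upper-quartile factors 15 and 3. Among all genes, 36.5% were called lower and 36.6% higher in the main fit. NCL (nucleolin) stood at 2437, 2674 and 2450.3 CPM with DMSO and at 606, 632 and 664 CPM with HSN748 (log2 fold change -1.99, SE 0.08). HNRNPR (-1.75), the nucleolar RNA methyltransferase NOP2 (-1.27) and FBL, the fibrillarin of the nucleolus (-0.80), fell as well. CIRBP, a cold-inducible RNA-binding protein, was called higher (0.23, adjusted p 0.031), and lost the call without DMSO replicate 2 (adjusted p 0.0558), DMSO replicate 3 (0.0618) or HSN748 replicate 8 (0.0957).

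Substrates of CARM1 were called in both directions. Of 17 genes 8 fell, 6 rose and 3 did not pass, beside 36.5% of all genes called lower and 36.6% higher. Their median was -0.26, or 0.06 when scaled on reference genes, against 0.01 and 0.33 for all genes tested. ELAVL1, an RNA-stabilising protein, fell (-1.42), and the coactivators NCOA3 and CREBBP rose (1.48 and 0.70). Of 16 tested substrates of the other PRMTs 10 fell, 3 rose and 3 did not pass, with a median of -0.82, and with upper-quartile factors or reference genes 9 were called lower and 5 higher. Among them E2F1, a cell cycle transcription factor that PRMT5 methylates, fell (-3.10), lying between 42.5 and 51.3 CPM with DMSO and between 5.41 and 5.84 CPM with HSN748, and the chaperone HSPA8 (-2.78) and the helicase RUVBL1 (-2.30) fell too. PIWIL4, an Argonaute family protein (1.55), and the ribosomal protein RPS3 (0.45) rose.

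Proteins with a Tudor or related domain and enzymes that act on arginine showed no common direction. Of 13 listed readers 9 were tested, 3 fell, 3 rose and 3 did not pass. That is near the share over all genes, 36.5% called lower and 36.6% higher. Their median was -0.05, against 0.01 for all genes tested. It was 0.15, 0.071 and 0.27 under upper-quartile, total-count and reference-gene scaling, where that of all genes was 0.21, 0.13 and 0.33. UHRF1 (-2.37) and PHF19 (-1.44), which fell, and SETDB1 (0.34), which rose, are known as proteins that read or write lysine methylation, and TDRD7 (0.98), which rose, as a Tudor protein of germ cells. JMJD6, a dioxygenase reported to act on methylarginine, was called lower (log2 fold change -0.31, adjusted p 0.0062), a call lost under upper-quartile, total-count and reference-gene scaling and with limma on log2(FPKM + 1). PADI2, which converts arginine to citrulline, rose (0.77), lying between 2.65 and 3.39 CPM with DMSO and between 4.41 and 5.31 CPM with HSN748, and 6 other genes of that list were not analysed here.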

How the data were processed

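RNA-Seq of 3 DMSO and 3 HSN748 cultures of MOLM14 was analysed from whole-number counts per gene that the authors deposited for 13244 genes, made according to the submitters' notes with bcl2fastq and STAR. The sources used here do not give the versions, the counting program, the strand setting, the build or the authors' filter. The 12 columns of log values per library and the 4 columns of the authors' own comparison (fold change, its logarithm, p and FDR) were not used. Counts were tested with edgeR 4.0.16 in R 4.3.3 (filterByExpr, 160 genes removed, 13084 kept, TMM, quasi-likelihood F test, treatment as the only term), with Benjamini-Hochberg adjustment over all genes and a threshold of 0.05. The test was checked on simulated data with far fewer changed genes than were called here, so that check does not cover changes this broad. Library totals of 35277785 to 59279430 counts set the precision. Per-kilobase values used the deposited gene lengths. Ratios within libraries were compared with exact permutation tests in Python 3.11.15 with scipy 1.17.1.

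The sample titles of the groups share no number and do not say whether cultures were paired, so no block was fitted. Alternatives were RLE, upper-quartile, total-count and reference-gene scaling, DESeq2 1.42.0, limma-voom and limma 3.58.1 on log2(FPKM + 1) computed from the counts, other filters, a gene length correction and leaving out each culture. The genes named were all 10 members, every gene of lists of 8 or fewer entries, for longer lists the 3 smallest adjusted p and up to 2 that passed against the majority, 6 classical substrates and enzymes (FBL, SNRPB, SNRPD1, SNRPD3, MAT2A, MTAP), and the 5 genes nearest to PRMT5. Results for some genes that this rule names are not reported here. Markers were named to check the cell type. The members and the lists were chosen with earlier results of these data known. Promoter windows and annotation came from RefSeq GRCh38.p14 and GENCODE v29.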

Additional observations from a re-analysis of the deposited data

How the results depend on the processing

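Of 160 values of the 10 genes under alternatives (16 for each gene), 155 kept their direction and their side of the threshold. The PRMT9 value, which passed under no setting, changed sign under upper-quartile (0.15), total-count (0.063) and reference-gene scaling (0.26) and with limma on log2(FPKM + 1) (0.054). NDUFAF7 did so under the same settings (0.11, 0.023, 0.22 and 0.019), and COPRS (0.025) and JMJD6 (0.0098) under reference-gene scaling. In the other direction, NDUFAF7 gained a call as lower with the gene length correction (-0.26, adjusted p 0.0423) and COPRS without DMSO replicate 2 (-0.41, adjusted p 0.0383). CLNS1A lost its call under reference-gene scaling, and the cause was not tested. The median of all genes moved to 0.33, 0.21 and 0.13 under reference-gene, upper-quartile and total-count scaling. Under reference-gene scaling 3109 genes were called lower, against 4770. With a log2 fold change beyond 1 as well, 1949 genes were lower and 2230 higher (4793 without), and of the 10 genes 0 were higher, since PRMT2 stayed under that fold. Undivided by length, the fall of the PRMT1 share of type I counts was -23.1 points. No paired analysis was made, since the sample titles do not say whether cultures were paired. Leaving out a culture changed no call among the 10 genes.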
